A study of Mus musculus with 3 samples.

Results

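The Mrgpra genes encode Mas-related G protein-coupled receptors, a family that the mouse genome holds as a cluster of closely related copies on chromosome 7. The arrays carried 11 probes whose gene name begins with Mrgpra, for 10 genes, out of 55681 non-control probes under 36163 gene names, and all 11 are described here. The members were chosen by gene name, and the family was selected on its measured differences between the Tie-2-Etv2 arrays and the control, where several members were among the highest genes. Those differences are therefore given as a description with no test.

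The series measured RNA of yolk sac cells that a cell sorter had collected as positive for VE-cadherin, an adhesion protein of endothelium, and for CD45, a surface protein of blood cells. The control group was 1 sample from E10.5 embryos (E, embryonic day), with no allele named in its labels. The Tie-2-Etv2 group was 2 samples, replicates 1 and 2, that carried an Etv2 transgene (Tg) turned on by a Tie-2 Cre transgene, with no age given. Each sample was labelled with Cy3 and read on its own 1-colour Agilent array, and the 3 arrays shared 1 slide. The strain of all 3 was labelled mixed (B6/CBA and others). Etv2 is a transcription factor of the ETS family that acts early in endothelium and blood, and Tie-2 Cre is active in endothelium and in blood cells that descend from it. How many embryos each sample held, and whether the replicates came from separate litters, is not given in the labels, so their spread may be technical.

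Mrgpr receptors are best known from sensory neurons, where they respond to small peptides and itch-inducing compounds, and couple through Gq and Gi proteins to phospholipase C beta and calcium release. Mrgpra3 is the receptor for chloroquine in itch neurons, and Mrgpra1 was first described as a receptor for RF-amide peptides. Outside neurons, Mrgpra2a and Mrgpra2b are known from mouse neutrophils, where defensins activate them, and Mrgprb2 is the peptide receptor of mouse connective tissue mast cells.

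Each gene was read by probes of 60 bases, and the sequences below show which members those probes can tell apart. Probes are written 5′ to 3′ from the array design. For Mrgpra2b and Mrgpra2a the first 30 bases are shown, and capitals mark the run of 55 bases that the 2 probes share. In Mrgpra6 and Mrgpra7 capitals mark the run of 23 bases shared between them. In Mrgpra1 they mark a run also present in the Mrgpra6 probe.
Mrgpra2b: aacttCAACATCTCTCCACTAACTTAGTTT
Mrgpra2a: CAACATCTCTCCACTAACTTAGTTTTTCTA
Mrgpra6: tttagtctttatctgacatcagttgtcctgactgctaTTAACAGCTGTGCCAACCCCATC
Mrgpra7: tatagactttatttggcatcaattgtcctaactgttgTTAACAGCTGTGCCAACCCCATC
Mrgpra5: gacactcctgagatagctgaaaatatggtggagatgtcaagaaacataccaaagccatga
Mrgpra1: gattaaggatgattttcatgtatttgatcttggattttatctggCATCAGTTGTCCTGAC

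The Mrgpra2b probe began 5 bases before that of Mrgpra2a on the shared stretch, so the 2 probes are nearly the same oligo. The array annotation lists the transcripts of both genes for the Mrgpra2b probe and that of Mrgpra2a alone for the other. The Mrgpra6 and Mrgpra7 probes differed at 8 of 60 positions, and the annotation of the Mrgpra7 probe also lists the Mrgpra8 transcript. Among the 55 pairs of Mrgpra probes, 2 shared a run of at least 20 bases. A search of every array probe for such runs found 1 further match, the unnamed probe NAP062712-1, which shared 39 bases with the Mrgpra7 probe and 23 with the Mrgpra6 probe. Values of Mrgpra2a and Mrgpra2b therefore cannot be separated by these probes, and the probes of Mrgpra6 and Mrgpra7 are not fully distinct.

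Of the 11 probes, 3 were well above background on all 3 arrays, 1 on both Tie-2-Etv2 arrays, 1 on replicate 2 alone, and 6 on no array. Intensities below are the processed signal with the extraction software's own error estimate. The 8 probes with a position in the array files (build mm9) lay on the minus strand of chromosome 7 between 54441274 and 55237288. No Mrgpra probe was compared in level with another, since probes differ in how brightly they report.

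Mrgpra2b was read at chr7:54719177-54719236, base 1200 of its transcript. Its intensity was 187 ± 19.0 on the control array, 2370 ± 237 on replicate 1 and 1740 ± 174 on replicate 2. Both Tie-2-Etv2 arrays were above the control array, the property the family was chosen for. On the scaled level, which is the log2 signal minus the array's 75th percentile over detected probes, it stood at -3.47, 0.99 and -0.27 in the same order. The log2 differences from control were 4.45 and 3.20, with a mean of 3.83 ± 0.89 (SD, n = 2), or 14.2-fold. Unscaled, the 2 arrays were 12.7 and 9.28 times the control intensity. In a bulk sample, a larger number of cells that contain the transcript and more transcript per cell cannot be told apart.

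Mrgpra2a was read at chr7:54681698-54681757, base 1180 of its transcript, and its intensities were 178 ± 18.0 in control, 2250 ± 225 in replicate 1 and 1550 ± 155 in replicate 2. The levels were -3.54, 0.91 and -0.44. Its values followed those of Mrgpra2b on every array, and both Tie-2-Etv2 arrays were again above the control. The differences of 4.45 and 3.11 gave a mean of 3.78 ± 0.95 (SD, n = 2), or 13.7-fold.

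Mrgpra6, which RefSeq lists as a transcribed pseudogene, was read at chr7:54441274-54441333, base 707 of its transcript. Its intensity was 27.9 ± 4.15 in control, 327 ± 32.8 in replicate 1 and 280 ± 28.1 in replicate 2. The control value was well above background but near the lower end of what the array could detect. Levels were -6.22, -1.87 and -2.90, and the differences of 4.34 and 3.31 had a mean of 3.83 ± 0.73 (SD, n = 2), or 14.2-fold. With normexp background correction, which lifts dim values, the mean was 2.34.

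Mrgpra5, whose probe has no position in the files, was not well above background in control. Its intensity was 6.74 ± 3.02 there, 67.6 ± 7.12 in replicate 1 and 61.6 ± 6.59 in replicate 2. It was therefore seen on the Tie-2-Etv2 arrays alone, and it entered the set of tested genes only through them. Against the lowest detected level of the control array it was at least 6.12-fold higher on average, at least 8.47-fold in replicate 1 and at least 4.42-fold in replicate 2. The measured log2 differences were 4.12 and 3.18, and normexp correction brought their mean to 1.26.

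Mrgpra7, also without a position, was well above background on replicate 2 alone. Its intensity was 21.5 ± 3.45 there, 12.1 ± 2.90 on replicate 1, and 3.23 in control, a substitute that the software writes for very dim spots. Replicate 2 was at least 1.55-fold above the lowest detected level of the control. Mrgpra7 was not among the tested genes, and normexp correction brought its measured mean difference to 0.72. The unnamed probe NAP062712-1, at chr7:54810880-54810939 within the cluster and the nearest to the Mrgpra7 probe in sequence, read 3.51, 9.38 and 17.7 and was likewise well above background on replicate 2 alone.

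The remaining 6 probes were not well above background on any array, and the lowest intensity among them was 2.14. They belong to Mrgpra1, Mrgpra3, Mrgpra4 (2 probes), Mrgpra8 and Mrgpra9. The Mrgpra1 probe at chr7:54590470-54590529 read 2.82, 2.14 and 2.27 on the control, replicate 1 and replicate 2. The itch receptor Mrgpra3, at chr7:54844375-54844434, read 3.24, 2.52 and 5.93. For Mrgpra4 the probe at base 1152 of the transcript (chr7:55236164-55236216) read 3.06, 2.39 and 2.66, while that at base 378 (chr7:55237229-55237288) read 9.349, 2.965 and 10.53. Mrgpra8, without a position, and Mrgpra9, at chr7:54490461-54490520, stayed between 2.43 and 3.25. These probes give no order between the groups, and a transcript below the detection level of the array was not measurable.

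**Figure D1:**
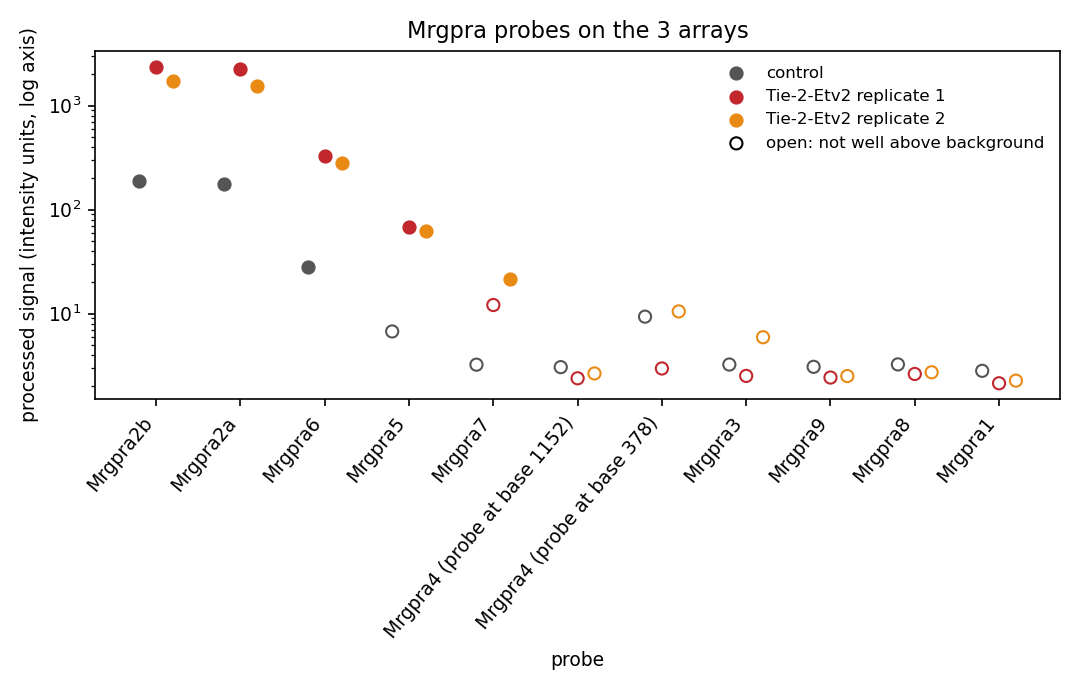
Processed signal of the 11 Mrgpra probes (log axis, intensity units) on the control array (grey), Tie-2-Etv2 replicate 1 (red) and replicate 2 (orange), with open symbols for values not well above background. Mrgpra2b, Mrgpra2a and Mrgpra6 are filled on all 3 arrays with both Tie-2-Etv2 values above the control, Mrgpra5 is filled on the Tie-2-Etv2 arrays, and 6 probes are open throughout.

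Across the whole table, 768 of 19583 tested genes (3.92%) exceeded the control by at least 2-fold on each Tie-2-Etv2 array, and 1300 (6.64%) lay at least 2-fold under it on each. The tested genes include 4 Mrgpra genes (Mrgpra2a, Mrgpra2b, Mrgpra5 and Mrgpra6), each more than 2-fold higher on both arrays, which is the property they were chosen for. By limma with Benjamini-Hochberg adjustment over all tested probes, 0 genes (0%) passed an adjusted p of 0.05 and 2110 had an unadjusted p under 0.05. With 1 array against 2, an exact permutation test cannot give a p under 0.333. When the 17205 genes detected on all 3 arrays were ordered by the smaller of their 2 differences, Mrgpra6 stood at place 7 with 3.31, Mrgpra2b at 11 with 3.20 and Mrgpra2a at 14 with 3.11. Mrgpra2a and Mrgpra2b share a probe sequence and do not count as separate observations in this order.

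The differences of the tested Mrgpra genes were larger in replicate 1 than in replicate 2, while those of Mrgpra7, not tested, were 2.70 and 2.73. The gap was 1.03 for Mrgpra6, 1.25 for Mrgpra2b, 1.35 for Mrgpra2a and 0.94 for Mrgpra5 on the log2 scale. Most of the higher genes leaned the same way. Among the 502 genes detected on all 3 arrays and 2-fold higher on both, the median gap was 0.67 (quartiles 0.27 and 1.10), and 447 had a gap above 0. Over all 17205 detected genes the median gap was 0.06. Mrgpra5 and Mrgpra6 thus lay inside the quartiles of the higher genes, and Mrgpra2a and Mrgpra2b above the upper one.

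**Figure D2:**
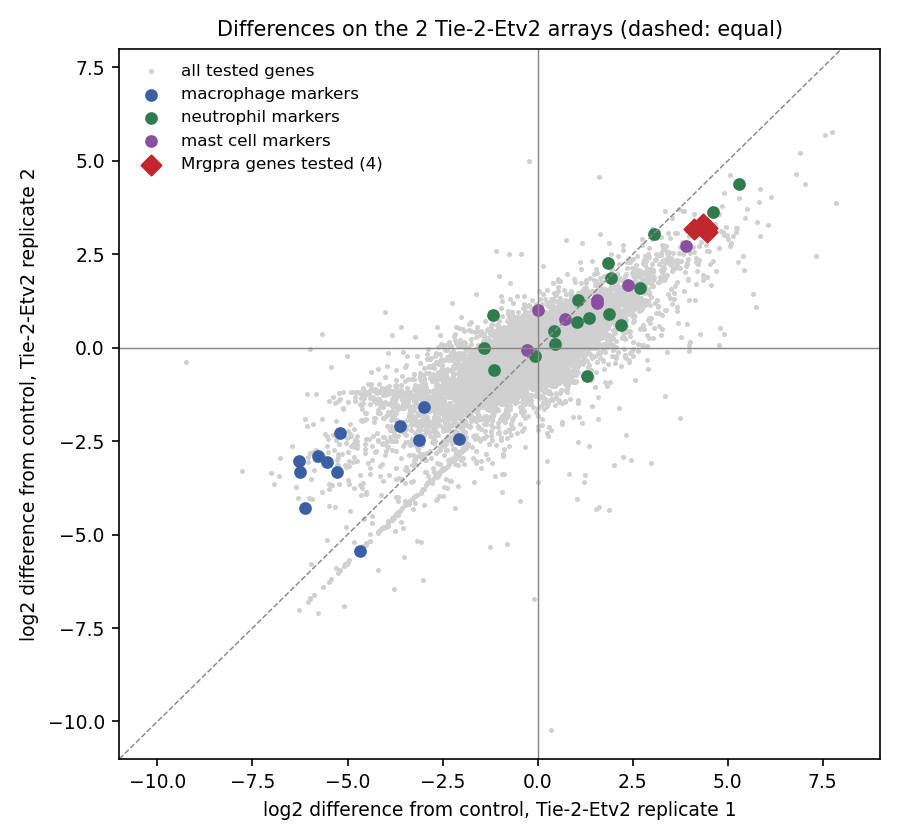
Log2 difference from control in Tie-2-Etv2 replicate 1 (x axis) and replicate 2 (y axis) for all tested genes (grey), with macrophage, neutrophil and mast cell markers coloured and the 4 tested Mrgpra genes as red diamonds. The diamonds lie together at 4.12 to 4.45 on the x axis and 3.11 to 3.31 on the y axis, under the dashed line of equal differences.

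The 3 Mrgpra genes detected on every array had mean differences of 4.42 in replicate 1 and 3.21 in replicate 2. Among genes with a RefSeq name, the 8 with the nearest pair of differences, by Euclidean distance over these 2 values from 3 arrays, were Etv2, Csgalnact1, Pnp2, S100a9, Notch4, Pde2a, Mmrn1 and Tdrd5. Etv2, the gene of the transgene, lay closest at 4.42 and 3.22. Csgalnact1, an enzyme of chondroitin sulphate synthesis, had 4.46 and 3.05, and S100a9, a calcium-binding protein abundant in neutrophils, had 4.61 and 3.63. Notch4, an endothelial Notch receptor, had 4.44 and 2.74, and Pde2a, a phosphodiesterase of cyclic nucleotides, had 4.87 and 3.09. With 2 values per gene, likeness on this measure says only that the sizes of the differences were alike. The mean of the 3 Mrgpra genes counts Mrgpra2a and Mrgpra2b separately, although nearly the same oligo reads both.

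The cluster itself held another probe with the same pattern. NAP062715-1, an unnamed probe at chr7:55078784-55078843 on the minus strand, lies between the Mrgpra3 and Mrgpra4 probes and was singled out after its values were seen. Its sequence is shown because no gene name identifies it.
NAP062715-1: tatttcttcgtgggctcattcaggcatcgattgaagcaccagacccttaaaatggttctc

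NAP062715-1 read 48.1 ± 5.59 in control, 475 ± 47.6 in replicate 1 and 469 ± 46.9 in replicate 2, all well above background. Its differences of 4.10 and 3.27 had a mean of 3.68 ± 0.58 (SD, n = 2), or 12.8-fold. The probe shared no run longer than 6 bases with its best-matching probes of the Mrgpr family, so the overlap found for the Mrgpra6 and Mrgpra7 probes was not seen here. Probes can lie at different places of a transcript, so this comparison cannot tell whether NAP062715-1 reads a member of the family. The other 6 probes inside the cluster without an Mrgpra name were dim: 5 were well above background on no array, and NAP062712-1 on 1. The dim ones included LOC100502859, whose probe matched that of Mrgpra9 at 46 of 59 overlapping bases, and NAP062714-1, which matched that of Mrgpra8 at 45 of 56.

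Beyond the cluster, genes on either side were mostly at control level. The cluster with 1 Mb around it held 55 probes of 45 genes whose names do not begin with Mrgpr, and 23 probes of 20 genes were tested. These include the unnamed probes inside the cluster, some of which resemble Mrgpra probes in sequence. NAP062715-1, inside the cluster, was the 1 probe at least 2-fold higher on both arrays (background 3.92% of tested genes). On measured values 2 probes were 2-fold lower (background 6.64%), of which 1 was not above background on either Tie-2-Etv2 array. Both counts are near the share over all tested genes. Ldha, a lactate dehydrogenase subunit, was read by 3 probes whose differences ran from -0.70 to 0.36. Tsg101, an endosomal sorting factor, was at -0.13 and -0.03, and Zdhhc13, a palmitoyltransferase, at 0.20 and 0.17. The serum amyloid gene Saa3 was at 0.38 and -0.05.

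**Figure D3:**
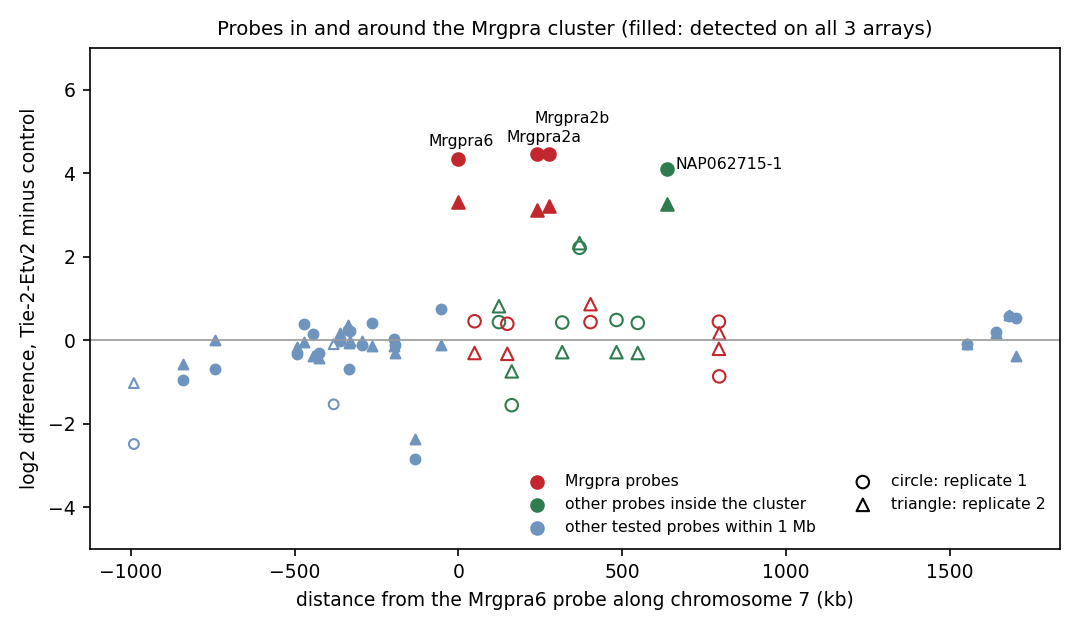
Log2 difference from control (y axis) against distance along chromosome 7 from the Mrgpra6 probe in kb (x axis) for Mrgpra probes (red), other probes inside the cluster (green) and other tested probes within 1 Mb (blue), with circles for replicate 1, triangles for replicate 2 and filled symbols for probes detected on all 3 arrays. Mrgpra6, Mrgpra2a, Mrgpra2b and NAP062715-1 stand above 3 on both arrays, and the open symbols between them are probes not detected on every array.

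Promoter sequences were in the RefSeq table for 5 of the 10 genes (Mrgpra1, Mrgpra2a, Mrgpra2b, Mrgpra4 and Mrgpra9), each as 250 bases before and 50 after the start. Mrgpra2a and Mrgpra2b were identical over all 300 bases. Mrgpra2a matched Mrgpra9 at 72.6% of positions, Mrgpra1 at 56.2% and Mrgpra4 at 50%. The 250 bases upstream of Mrgpra2a, at chr7:47452165-47452414 of GRCm38.p6 on the minus strand, are shown because Etv2 is an ETS factor. Capitals mark each GGAA, the core of ETS sites, on either strand.
Mrgpra2a promoter: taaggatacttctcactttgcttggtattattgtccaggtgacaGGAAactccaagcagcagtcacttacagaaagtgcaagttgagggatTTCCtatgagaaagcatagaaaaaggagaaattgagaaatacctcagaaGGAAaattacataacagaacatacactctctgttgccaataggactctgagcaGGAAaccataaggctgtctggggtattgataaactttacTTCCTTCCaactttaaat

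Over 300 bases GGAA occurred 7 times in Mrgpra2a and in Mrgpra2b, 6 times in Mrgpra9 and in Mrgpra1, and 2 times in Mrgpra4. Short as it is, 96.0% of 32851 promoters held it, with a median of 3, and 8.02% held as many as Mrgpra2a. The longer ETS words CCGGAAGT and GAGGAAGT, which contain GGAA, occurred in none of the 5, against 3.89% and 3.20% of all promoters. No match was found in the 5 for the C/EBP words TTGCGCAA (0.183% of all promoters) and TTGCNNAA (10.8%) or for TATAAA (13.6%). AGATAA, the GATA core, occurred 1 time in Mrgpra9 and in Mrgpra1 and in no other of the 5 (11.2% of all). CANNTG, the E-box, occurred 1 time in Mrgpra2a, Mrgpra2b and Mrgpra4, 2 times in Mrgpra9 and not in Mrgpra1 (72.3% of all). All words were searched on both strands, and a match is a description of letters, with no claim on binding.

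None of the other Mrgpr genes was at least 2-fold higher on both arrays among those tested. The arrays held 15 probes for 14 other Mrgpr genes, of which 13 were well above background on no array (intensities of 2.09 to 11.0). These included Mrgprd, a receptor of skin-innervating neurons, and Mrgprb2, the mast cell receptor, which read 2.85, 2.20 and 2.31. Both Mas1 probes were also dim. The list of 14 other Mrgpr and Mas-related genes had 2 tested members, 1 of them at least 2-fold lower (background 6.64%) and 0 higher. That gene was Mrgprf, whose intensity was 108 in control, 15 in replicate 1 and 14.6 in replicate 2. Its differences of -2.06 and -2.90 made it 5.58-fold lower on average, and with normexp correction the count of lower members was 0. Mrgprg was close to control at -0.19 and -0.15, though not well above background in replicate 1.

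The machinery through which Mrgpr receptors signal was present on all 3 arrays and mostly close to control. The list of Gq and Gi signalling and desensitisation genes held 32 genes under 34 names, as Adrbk1 and Adrbk2 are older names of Grk2 and Grk3. All 32 were on the array and 27 were tested. Their median difference was -0.08 against 0.07 for all tested genes. None was at least 2-fold higher on both arrays (background 3.92%) and 2 were lower (background 6.64%), a share near that of all tested genes. The lower ones were Prkcb, a protein kinase C, at -3.30 and -2.02, and Grk3, a receptor kinase. Grk3 was at least 1.46-fold lower on average and not above background on the Tie-2-Etv2 arrays. The alpha subunit Gnaq was at -0.75 and -0.54, and Gnai2, the main Gi subunit of leukocytes, at -0.01 and -0.11. Phospholipase Plcb2 was at 0.78 and 0.95, and Plcb3 at 0.10 and -0.07. The channels Trpa1 and Trpv1, along with Gna14 and Plcb1, were above background on no array. No gene of this or any following list passed limma. Without replicate 2 the counts of this list were 3 higher and 4 lower, against 1775 higher and 2204 lower of all 19586 genes in that setting. Averaging each gene's probes gave 2 higher, against 768 of 19583 genes.

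Genes for peptides reported to act on Mrgpr receptors were also measured. Of 11 such genes 6 were tested, with a median difference of 0.31, 0 higher on both arrays (background 3.92%) and 1 lower (background 6.64%). The lower gene was Penk, the enkephalin precursor, at -4.50 and -2.44, with replicate 1 not above background. Npff, a precursor of RF-amide peptides, was at 0.54 and 0.46, and Pomc at 0.28 and 0.19. Camp, the cathelicidin of neutrophil granules, was not above background in control and at least 1.25-fold higher on average. The defensin genes Defb3, Defb4 and Defb14 were above background on no array, and Defb1 on replicate 1 alone. Without replicate 2 the list had 1 higher member, against 1775 of all 19586 genes in that setting.

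Receptors that neutrophils use to sense their surroundings went in both directions. Of 20 fixed genes 14 were tested, 3 were higher on both arrays (background 3.92%) and 5 lower (background 6.64%), and the median was 0.02. S1pr4, a sphingosine-1-phosphate receptor of leukocytes, was not above background in control and was tested only through the Tie-2-Etv2 arrays. It was at least 5.71-fold higher on average, with measured differences of 2.76 and 2.74. Among the 12 members detected on all 3 arrays, 2 were higher, against 502 of the 17205 genes so detected. Cxcr2, a receptor for neutrophil-attracting chemokines, was at 2.62 and 1.53, and Ffar2, a receptor for short-chain fatty acids, at 2.37 and 1.18. The lower members included the complement receptors C3ar1, at -4.54 and -2.70, and C5ar1, at -2.62 and -2.06. Cxcr4, the receptor for Cxcl12, was at -1.78 and -2.11. The formyl peptide receptors Fpr1, Fpr2, Fpr3 and Fpr-rs4, with Cxcr1 and Ccr1, were above background on no array. Under normexp correction 1 member was higher, against 312 of all 19583 genes in that setting.

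Markers of blood cell types differed from control in both directions. Of 25 neutrophil markers, 24 were on the array, 18 were tested and 7 were at least 2-fold higher on both arrays (background 3.92%), with 0 lower and a median of 1.12. Their summed linear level, in multiples of each array's 75th percentile, was 28.5 in control, 63.3 in replicate 1 and 65.0 in replicate 2. Mpo, the myeloperoxidase gene, made up most of each sum, and without it the sums were 10.6, 26 and 21.0. S100a8, the partner of S100a9, was at 5.31 and 4.37. The cystatin Stfa3 was at 3.06 and 3.05, and Cebpe, a transcription factor of granulocyte maturation, at 1.93 and 1.87. The granule gene Elane was at -0.06 and -0.22, the G-CSF receptor Csf3r at 0.42 and 0.45, and Ngp, Mmp8, Cd177 and Retnlg were above background on no array. The granule genes Ltf and Mmp9 were not above background in control and were at least 4.0-fold and at least 2.1-fold higher on average. Ltf, Mmp9, Ctsg and Camp were tested only through the Tie-2-Etv2 arrays, and they enter the count and median above. Among the 13 markers detected on all 3 arrays, 6 were higher, with a median of 1.07, against 502 higher of the 17205 genes so detected. Without replicate 2 the list had 12 higher and 3 lower members, against 1775 higher and 2204 lower of all 19586 genes in that setting. The lower ones were Chil3 at -1.15, Prtn3 at -1.18 and Fcnb, not above background there, at -1.41. In replicate 2 these genes were at -0.60, 0.87 and -0.01. The part of neutrophil content in the Mrgpra values was not tested.

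Of 14 mast cell markers 7 were tested and 4 were higher (background 3.92%), with a median of 1.37 and a summed level of 1.88 in control, 6.28 in replicate 1 and 4.71 in replicate 2. Cpa3, the mast cell carboxypeptidase, was at 3.91 and 2.71, and Gata2 at 2.38 and 1.68, while Fcer1a, Ms4a2, Mcpt4 and Cma1 were above background on no array. Basophil and eosinophil markers had 2 tested of 7, both higher (background 3.92%), Il5ra at 4.01 and 2.53 and Siglecf at 1.16 and 1.44. Their count was 1 under spike-in scaling, in the authors' deposited table and by the mean of a gene's probes. Prg2, Epx and Mcpt8 were above background on no array. Macrophage markers went the other way, with all 12 tested of 14 at least 2-fold lower (background 6.64%), a median of -4.31, and a summed level of 72.0 in control, 4.95 in replicate 1 and 16.4 in replicate 2. Adgre1, which encodes F4/80, was at -6.13 and -4.28. Cd163, a scavenger receptor that was not among the tested, was above background on replicate 1 alone, with a level of -3.56 there. The part of these cell types in the Mrgpra differences was not tested.

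Sensory neurons are the best-known site of the receptors. Of 11 sensory neuron markers 8 were above background on no array, including Scn10a, Calca and Prph, and 3 were tested, with a median of -0.42. The purinergic receptor P2rx3 was detected on all 3 arrays, at 0.55 and -1.39. Sncg, a synuclein, was detected in control alone and was at least 1.18-fold lower on average. Its control level of -6.95 lay under the lowest detected level of replicate 1, -6.83, so that array alone bounds no decrease. Scn11a, a sodium channel, was not above background in control and was at least 2.05-fold higher on average. It was the 1 higher member (background 3.92%), and the count was 0 under normexp correction or with dim values at the lowest detected level. The summed level was 0.0651 in control, 0.0935 in replicate 1 and 0.0424 in replicate 2. The sort and transgene markers were detected on all 3 arrays. Etv2 was at 4.42 and 3.22, Cdh5 (VE-cadherin) at 4.46 and 2.60, Tek (Tie-2) at 3.04 and 2.02, and Ptprc (CD45) at -0.42 and -0.50. The endothelial markers Pecam1, at 1.53 and 1.27, and Kdr, at 0.86 and 0.14, were closer to control. Of the 6 markers 4 were at least 2-fold higher (background 3.92%), and their part in the Mrgpra values was not tested.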

How the data were processed

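Intensity values were extracted by the authors with Agilent Feature Extraction (version 10.7 in the submitters' processing notes, 10.7.3.1 per the file headers), which subtracted background and wrote a substitute for very dim spots. The deposited table of log2 values matched these signals in 100% of 55668 probes within 0.01 apart from 1 constant per array (0.756 and -0.0161), with each row centred on the median of its arrays. Its column medians were 0, 0.136 and 0.

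No spot was saturated, and outlier spots, 168 to 174 on each array, were dropped. The log2 signal minus the 75th percentile over the 22764 probes detected on all 3 arrays was used. Between 24226 and 27027 probes per array were well above background. Probes above background on the control or on both Tie-2-Etv2 arrays were tested (26217 probes, 19583 genes), each gene by its brightest probe. The test was limma 3.58.1 in R 4.3.3, two-sided, with 1 residual degree of freedom from the Tie-2-Etv2 pair (3.93 after moderation) and the lone control assumed to vary like them.

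A fold against a group below background was bounded by the lowest detected level of each array, and holds for this scaling. Names were updated through RefSeq (GRCm38.p6, names and promoters only): 26582 probes matched by accession, 2602 by symbol, 492 by synonym and 26005 not. Of the Mrgpra genes 7 of 10 matched. Sequence comparisons used Python 3.11.15.

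The members, lists and rule for named genes were chosen with earlier results of these data known. Named were every Mrgpra probe, up to 4 members of each list that were 2-fold apart on both arrays (or the 2 largest where none was), the 8 genes nearest in pattern, genes within 1 Mb, and Etv2, Tek, Cdh5 and Ptprc. Other genes were named after their values were seen.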

Additional observations from a re-analysis of the deposited data

How the results depend on the processing

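The arrays allow no replicate check of the control, and 1 residual degree of freedom supports no call. No paired analysis was possible because the control is 1 array with no replicate number in its labels. Mrgpra2a, Mrgpra2b and Mrgpra6 stayed higher than control under every alternative run. Leaving out each Tie-2-Etv2 replicate in turn gave 3.11 to 4.45 for Mrgpra2a, 3.20 to 4.45 for Mrgpra2b and 3.31 to 4.34 for Mrgpra6. Dim values depended on how background was treated. Normexp gave 2.34 for Mrgpra6, 1.26 for Mrgpra5 and 0.72 for Mrgpra7, and setting dim values to the lowest detected level gave 2.61 for Mrgpra5 and 0.61 for Mrgpra7.

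Normexp correction gave 614 genes past the limma threshold and no filter on dim probes 440, against 0. Moderation added 2.93 degrees of freedom in the main run, 20.1 without a filter and an unlimited number with normexp. The residual degree of freedom stayed at 1, so 614 and 440 rest mainly on variance pooled over probes and are not read as calls. Genes 2-fold apart on both arrays numbered 2068 (768 higher, 1300 lower). They numbered 803 with normexp (312 higher, 491 lower) and 1095 among probes detected on all 3 arrays (502 higher, 593 lower). Without a filter they numbered 2876 (1317 higher, 1559 lower). Leaving out replicate 1 gave 2532 (897 higher, 1635 lower), and leaving out replicate 2 gave 3979 (1775 higher, 2204 lower). Lower members of the other Mrgpr list numbered 0 with normexp and 2 without a filter, and 1 when either replicate was left out. Lower signalling genes numbered 1 with normexp, with dim values at the lowest detected level and among probes detected on all 3 arrays, and 2 to 4 without a replicate. Higher ones numbered 2 by the mean of a gene's probes and 0 to 3 without a replicate. Lower ligand genes numbered 0 among probes detected on all 3 arrays, and higher ones 0 to 1 without a replicate. Higher neutrophil receptors numbered 1 with normexp and 3 to 4 without a replicate. Lower neutrophil markers numbered 1 without a filter and 0 to 3 without a replicate, and higher ones 7 to 12. Apart from the smaller sets that leaving out probes or arrays produces, the cause was not tested. A limma test without a replicate had no residual degrees of freedom and gave no value.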

Other observations

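Of the 23 tested probes within 1 Mb of the Mrgpra probes, 2 were at least 2-fold lower on measured values (background 6.64%). That share is near that of all tested genes, and both probes lie in genes flanking the cluster. Tmem86a, which encodes a lysoplasmalogenase-like membrane protein, was at -2.84 and -2.36 on the log2 scale and was detected on all 3 arrays. Ush1c, which encodes harmonin, a scaffold protein of hair cells, was well above background on the control alone by its tested probe. That probe was at least 1.46-fold lower in replicate 1 and at least 2.05-fold lower in replicate 2. Another Ush1c probe was above background on no array, with measured differences of 0.65 and -0.97. E2f8, a cell cycle transcription factor on the far side of the cluster, was at 0.58 and 0.61. These genes were not chosen for the family's pattern, and none passed limma after adjustment.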
